A study of Caenorhabditis elegans with 15 samples.

Results

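The comparison set RNA recovered with the eIF4E paralog IFE-1 against RNA recovered from a tag control, over 12238 of the 46934 gene IDs in the table. A gene was included when it had at least 1 TPM (an abundance per transcript length, scaled to the same sum in every library) in at least 3 of 6 libraries. The mKate::IFE-1 RIP (the IFE-1 pull-down) comprised 3 libraries of strain KX155, genotype mKate::ife-1 III and GFP::ife-3 V, made by CRISPR. The control, an mKate control RIP, comprised 3 libraries of strain LP307, genotype mKate::PH Chr II insertion, which carried the fluorescent tag without an eIF4E. The submitters left the control pull-downs out of their own comparison, stating that mRNA was poorly represented in them. All 6 came from whole Caenorhabditis elegans after 3 days of growth at 20 °C and from an RFP pull-down, in which beads bind the red tag and the RNA left on the beads is sequenced (RIP-seq). Stage, sex and the promoter of mKate::PH are not given in the labels. Strain and bait cannot be told apart, because IFE-1 was tagged in 1 strain and the control was another strain. The series also holds 3 libraries each of the IFE-3 pull-down and total RNA from KX155 and of the GFP control from strain LP306 (GFP::PH Chr II insertion), which are used here for reference.

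The eIF4E proteins bind the methylated cap at the 5′ end of mRNAs and, through the scaffold eIF4G, bring them to the ribosome. Repressor proteins can also hold an mRNA on eIF4E in an inactive state. IFE-1 is the worm eIF4E paralog that binds the P granule protein PGL-1 in germ cells, and worms without it make defective sperm at raised temperature. A control strain whose tag is on no eIF4E shows which RNAs stay on the beads without an eIF4E bait.

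The gene IDs could not be paired with symbols, so neither the ife-1 transcript nor any marker of germ line, muscle, neuron or intestine could be checked, and genes are described by their levels. Of the 12238 genes, 9753 reached 1 TPM in all 6 libraries. A further 13021 IDs were above 0 in some library without reaching the limit, and 21675 were listed at 0 in all 6. There were 946 genes just inside the limit (exactly 3 libraries at 1 TPM) and 1315 just outside it (exactly 2). The 12238 genes held 99.5% to 99.7% of the TPM of each library. The 10 highest genes of each library held 69.5%, 71.6% and 62.5% of its TPM in IFE-1 pull-down replicates 1, 2 and 3. In the mKate control they held 75.1%, 73.9% and 71.1%. The same values in all 15 libraries were found for 215 of the 12238 genes and at least one other, and reads of such near-identical copies cannot be assigned. Counts of genes below include every such ID, so a shared measurement can be counted repeatedly.

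The mKate control replicate 3 stood close to both groups. Its Spearman rho across genes was 0.908, 0.904 and 0.906 with IFE-1 pull-down replicates 1, 2 and 3, and 0.894 and 0.912 with the mKate control replicates 1 and 2. The control replicate 1 correlated with the IFE-1 pull-down libraries by 0.879, 0.872 and 0.828, and control replicate 2 by 0.903, 0.896 and 0.844. IFE-1 pull-down libraries correlated with each other by 0.930, 0.913 and 0.912. These values describe the libraries, as genes are not independent replicates. Values without control replicate 3 stand beside those that use it, an alternative chosen after seeing the data.

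As a class, abundant RNAs lay higher in the IFE-1 pull-down than in the tag control, and the class medians did so in every replicate pair. Genes were grouped by their mean level in total RNA, whose libraries are in neither group, with class limits set after the data were seen. Total RNA came from KX155, as the IFE-1 pull-down did, and the series holds none from LP307. Levels in worms of the control strain are therefore unknown. Libraries were first divided by a scaling factor (scaled TPM), and ratios are differences of log2(scaled TPM + 1). For the 448 genes at 100 to 1000 scaled TPM in total RNA, the median log2 ratio of the IFE-1 pull-down over the mKate control was 0.96, 0.72 and 0.46 in pairs 1, 2 and 3. For the 57 genes at 1000 or more it was 1.18, 0.96 and 0.90. Pair 3, which contains the control library described above, gave the smallest ratio in both of these classes. In whole worms, fewer cells of a type and less RNA per cell cannot be told apart.

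Rarer RNAs showed no such upward shift on this scale, which sets the median of all genes near 0. In the 3947 genes at 5 to 20 scaled TPM the median log2 ratio was -0.02, -0.04 and -0.06 in pairs 1, 2 and 3. In the 5049 genes at 1 to 5 it was -0.03, -0.02 and 0.00, and in the 1444 genes under 1 it was -0.05, -0.17 and -0.03. The 1293 genes at 20 to 100 lay between, with 0.35, 0.30 and 0.15.

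The direction of single genes followed the same order. Of the 448 genes at 100 to 1000 scaled TPM, 346 (77.2%) lay above the control in all 3 pairs and 17 (3.79%) below it in all 3. Of the 57 most abundant genes, 45 lay above in all pairs and 1 below. Of all 12238 genes, 3763 (30.7%) lay above in all 3 pairs and 3446 (28.2%) below. In the class at 5 to 20 the balance was the other way, with 29.9% above and 35.3% below. It was also the other way at 1 to 5, with 26.2% and 28.3%, and under 1, with 11.5% and 24.5%. In pairs 1 and 2 alone, 383 of the 448 genes lay above (85.5%) and 23 below, and 49 of the 57 lay above and 3 below. Of all genes, 37.3% lay above and 34.9% below in these pairs.

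The upward shift of the abundant classes was present under other scales, but its limit moved. With TPM as deposited, 66.1% of the 448 genes lay above the control in all pairs, and the median log2 ratio was 0.60, 0.34 and 0.36. The class at 20 to 100 then had 36.0% above and 34.1% below. Rarer genes lay lower in the IFE-1 pull-down on the deposited scale, on which the median of all genes was -0.20. At 5 to 20 the deposited medians were -0.34, -0.37 and -0.15, with 15.8% above and 55.0% below in all pairs, and at 1 to 5 they were -0.30, -0.27 and -0.06, with 14.1% above and 43.1% below. Grouped by the mean of the 6 libraries, which are also those compared, 79.0% of 420 genes at 100 to 1000 lay above in all pairs. At 1000 or more on this basis 70.5% of 44 did. Grouped by the GFP control, outside the comparison, 79.4% of 399 genes at 100 to 1000 and 79.4% of 34 at 1000 or more did. For the same total RNA classes, the IFE-3 pull-down over the GFP control gave median log2 ratios of 0.50, 0.28 and -0.15 at 100 to 1000 and 0.79, 1.18 and 0.84 at 1000 or more. Whether these medians differ between the paralogs was not tested.

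**Figure D1:**
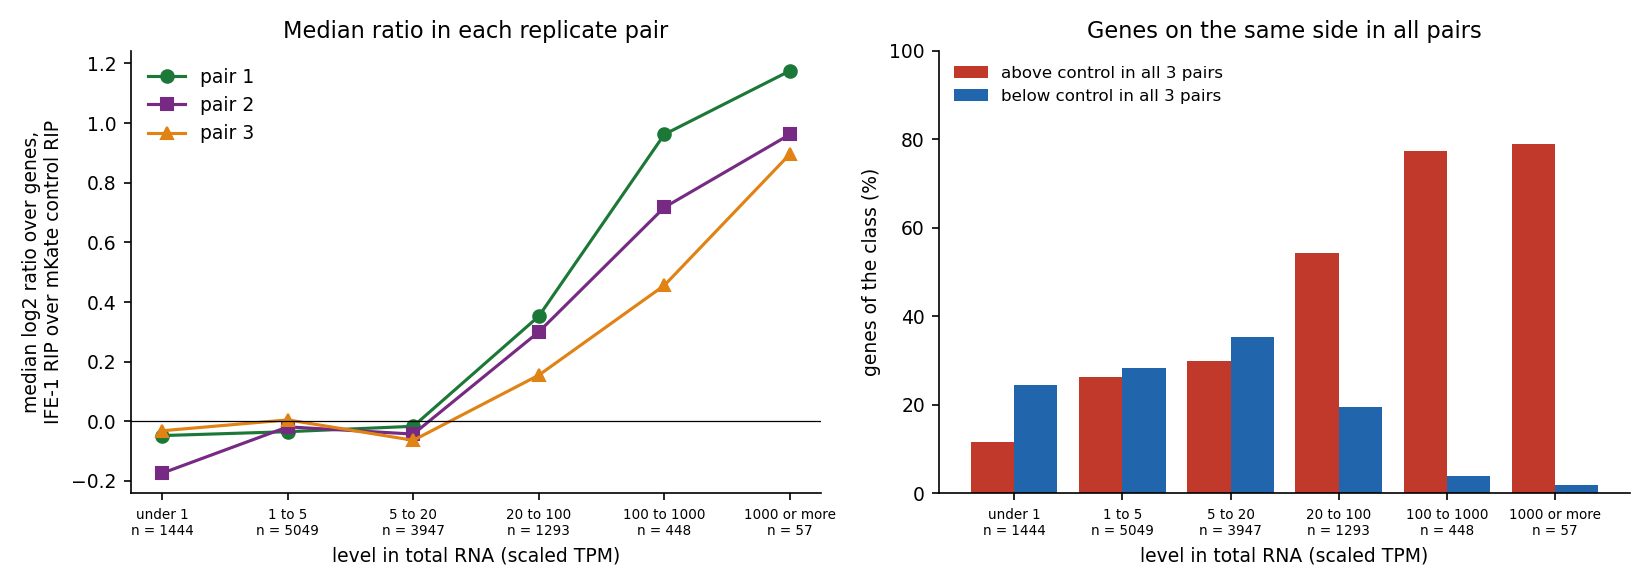
The left panel plots the median log2 ratio of the IFE-1 pull-down over the mKate control (y) in each of 3 replicate pairs for classes of genes by their mean scaled TPM in total RNA (x). The right panel plots the percent of each class above or below the control in all 3 pairs, which reaches 77.2% above at 100 to 1000 scaled TPM and 78.9% at 1000 or more.

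The genes were next tested one by one. In limma without pairing, 38 genes were higher in the IFE-1 pull-down (0.311% of 12238) and 20 were lower (0.163%) at an adjusted p under 0.05. Before adjustment, 3357 genes had p under 0.05, of which 1824 were higher and 1533 lower. The 38 higher genes had a median log2 fold change of 1.38, from 0.85 to 3.20, and 35 were at least 2-fold higher. The 20 lower genes had a median of -1.71, from -2.90 to -0.88, and 17 were at least 2-fold lower.

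The levels of the called genes were examined next. The mean over the 6 libraries was under 5 scaled TPM for 19 of the 38 and for 13 of the 20, against 51.0% of all 12238 genes, and 1 of the 38 reached 100. All control libraries were at 0 for 3 of the 38 genes, against 21 of all 12238. All IFE-1 pull-down libraries were at 0 for 8 of the 20, against 19 of all 12238. Such genes could be included only through the group where they were above 0, so their direction was fixed by that limit. Limma without pairing called 0 of the 448 genes at 100 to 1000 scaled TPM in total RNA and 0 of the 57 at 1000 or more. Of the 1444 genes under 1 in total RNA, it called 1 higher and 10 lower. Before adjustment, 221 of the 448 were higher and 5 lower at p under 0.05, and 14 of the 57 were higher and 0 lower. The median standard error of the log2 fold change was 0.29 in the class of 448 and 0.16 at 5 to 20 scaled TPM. Of the 20 lower genes, 2 had values identical to another gene, while 0 of the 38 did.

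Libraries with the same replicate number deviated together, by correlations over genes of 0.168, 0.152 and 0.353. Other pairings of libraries gave -0.261 to 0.133, and the value of 0.353 involves control replicate 3. No label states that libraries were paired. Blocking on that number, limma called 1046 genes higher (8.55%) and 508 lower (4.15%), and all 38 and all 20 were among them. The 1046 genes had a median log2 fold change of 0.90 and a median level of 15.6 scaled TPM, and 165 of them reached 100. The 508 had a median of -0.63 and a level of 7.11, and 3 reached 100. Values identical to another gene's were held by 54 of the 1046 and 8 of the 508, against 215 of all 12238 genes. In this fit 157 of the 448 genes at 100 to 1000 scaled TPM in total RNA were called higher (35.0%) and 0 lower, and 27 of the 57 most abundant genes were called higher (47.4%) and 0 lower. Before adjustment, 306 of the 448 were higher and 11 lower at p under 0.05, and 44 of the 57 were higher and 0 lower. Of all 12238 genes, 2603 were higher and 1955 lower at that limit. At 1 to 5 scaled TPM the counts were 201 higher and 185 lower of 5049.

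**Figure D2:**
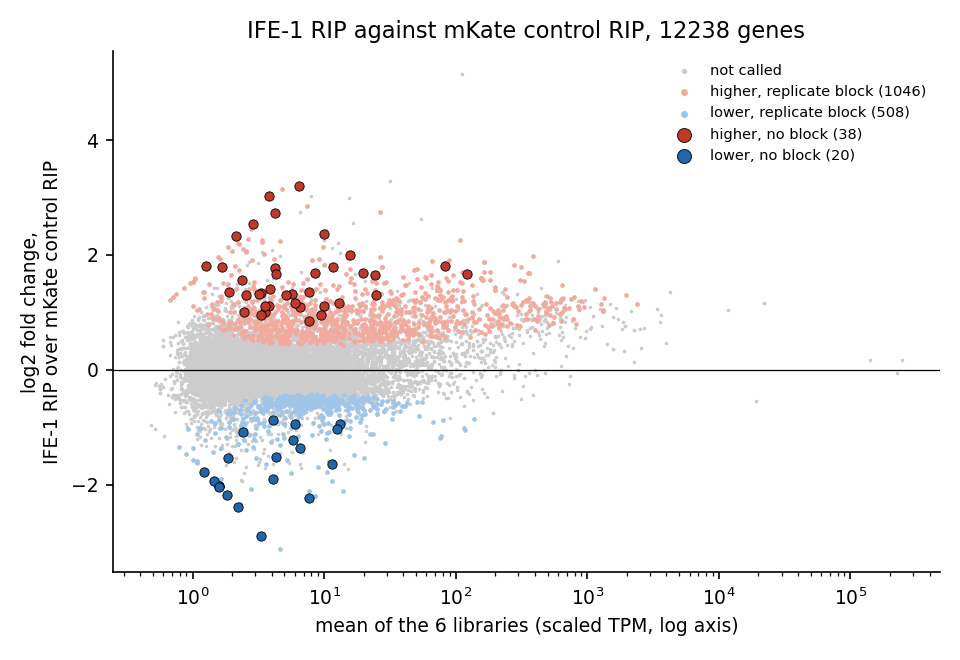
Each point is 1 of 12238 genes, with the mean of the 6 libraries in scaled TPM on a log axis (x) and the log2 fold change of the IFE-1 pull-down over the mKate control (y). Large points are the 38 higher and 20 lower genes called without pairing, pale points the 1046 and 508 called with the replicate block, and the pale higher genes extend to higher levels than the pale lower ones.

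Both counts depended on single libraries. Without the mKate control replicate 3 the fit without pairing called 937 genes higher and 549 lower. Without any other library it called between 0 and 1 in each direction, with 2115 to 2792 genes at an unadjusted p under 0.05. With the block, leaving out replicate number 1 or 2 gave 0 calls, with 3851 and 2337 genes at an unadjusted p under 0.05, and leaving out number 3 gave 635 higher and 101 lower. Groups did not overlap for 2044 genes above the control (16.7%) and 2123 below it (17.3%). With TPM as deposited the median of all genes was -0.20 in place of 0.01, and 43.9% of 41 calls were higher against 65.5% of 58.

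Genes are named by the rule in the methods, which allowed 2 IDs in each direction. WBGene00012965 stood at 9.63, 11.8 and 15.2 scaled TPM in the IFE-1 pull-down and at 0, 1.86 and 0 in the mKate control (replicates 1, 2 and 3). All IFE-1 pull-down libraries were above all controls, with a log2 fold change of 3.20 ± 0.43 SE (n = 3 each, limma adjusted p = 0.0462). Total RNA held 12.4, 14.9 and 8.36 of it, a range that overlaps the IFE-1 pull-down. The values were 6.15, 5.17 and 8.35 with IFE-3 as bait and 0.828, 0 and 2.78 in the GFP control, so that both tag controls lay below the other groups.

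WBGene00001392 stood at 14.5, 15.8 and 21.7 scaled TPM in the IFE-1 pull-down and at 1.64, 1.89 and 4.61 in the mKate control. The groups were far apart, with a log2 fold change of 2.37 ± 0.31 SE (n = 3 each, limma adjusted p = 0.0462). The means were 14.2 ± 1.99 with IFE-3 as bait, 7.05 ± 3.66 in the GFP control and 10.8 ± 4.01 in total RNA (n = 3 each, SD). The mKate control was the lowest of the 5 groups.

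WBGene00004996 was higher in the tag control. It stood at 2.02, 1.67 and 2.44 scaled TPM in the IFE-1 pull-down and at 15.0, 12.7 and 12.3 in the mKate control, a log2 fold change of -2.23 ± 0.14 SE (n = 3 each, limma adjusted p = 0.0125). Total RNA held 1.11 ± 0.201, the IFE-3 pull-down 1.67 ± 0.729 and the GFP control 4.89 ± 3.43 (SD, n = 3 each). The mKate control libraries stood above every other library, and the IFE-1 pull-down libraries stood above those of total RNA.

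WBGene00019016 stood at 4.15, 5.02 and 6.01 scaled TPM in the IFE-1 pull-down and at 15.1, 16.3 and 22.4 in the mKate control. Its log2 fold change was -1.64 ± 0.19 SE (n = 3 each, limma adjusted p = 0.0368). Total RNA held 3.71, 2.67 and 5.55, the IFE-3 pull-down 3.41, 3.19 and 5.60, and the GFP control 6.41, 1.01 and 6.86. Every mKate control library stood above every other library. With a library or replicate pair left out, these 4 IDs kept their call without the mKate control replicate 3 and lost it in most other cases, and no sign changed.

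**Figure D3:**
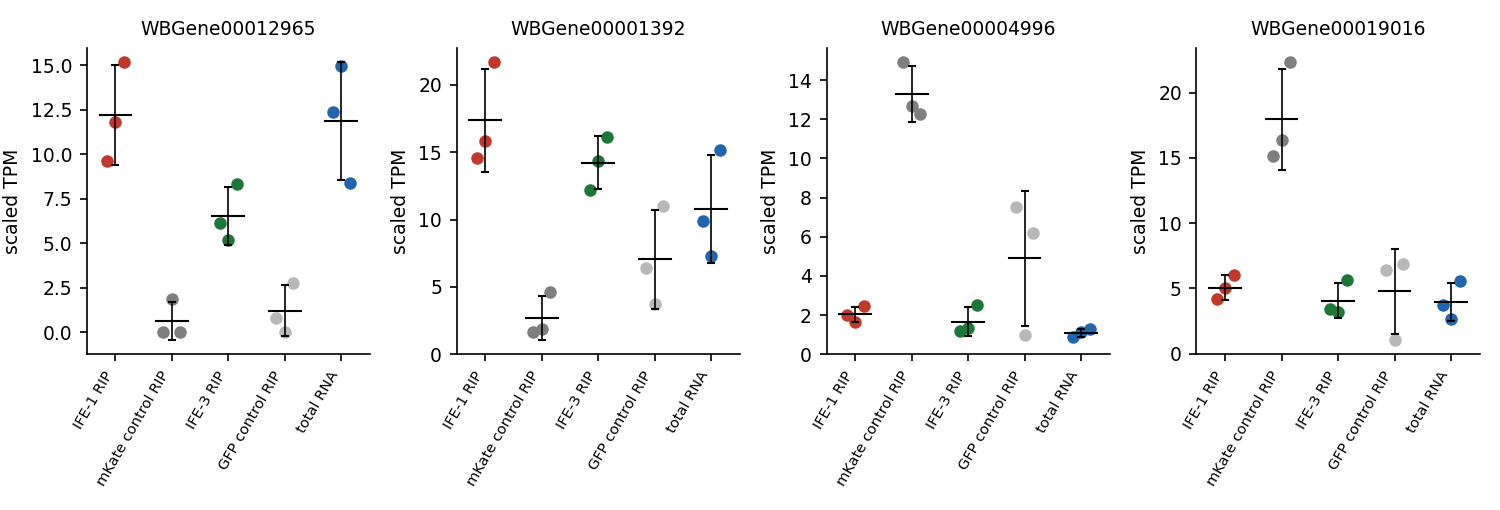
Scaled TPM (y) of 4 genes in each library of 5 groups (x), with the mean as a line and the SD as an error bar (n = 3). Scaling factors were taken over 6 libraries for the IFE-1 pull-down and mKate control, and over 15 for the other groups. The mKate control is the lowest group for WBGene00012965 and WBGene00001392 and the highest for WBGene00004996 and WBGene00019016.

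The called genes were then set against the RNA of the whole worm, since a ratio can differ through the bait or through the control. The median level of the 20 lower genes was 5.89 scaled TPM in the mKate control, 1.11 in the IFE-1 pull-down, 1.05 in the IFE-3 pull-down, 2.42 in the GFP control and 0.947 in total RNA. The mKate control mean was below total RNA for 0 of these 20 genes, while the IFE-1 pull-down mean was above total RNA for 6. The median of the 38 higher genes was 7.58 in the IFE-1 pull-down, 1.98 in the mKate control, 5.78 in the IFE-3 pull-down, 6.44 in the GFP control and 5.51 in total RNA. For 30 of the 38, the IFE-1 pull-down was above total RNA and the mKate control below it, for 5 only the control was below, and for 3 only the IFE-1 pull-down was above. Without control replicate 3 these counts were 31, 5 and 2, the control median of the 38 was 1.92 and that of the 20 was 5.64, and 0 of the 20 lay below total RNA in the control. These genes were chosen by the IFE-1 pull-down and mKate control libraries, so the values of these groups are a description.

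The 38 genes held 0.0646 ± 0.00327% of the TPM in the IFE-1 pull-down and 0.0229 ± 0.00110% in the mKate control. In the libraries that did not choose them, they held 0.0592 ± 0.00648% in the IFE-3 pull-down, 0.0605 ± 0.00776% in the GFP control and 0.0295 ± 0.000925% in total RNA (n = 3 each, SD). The GFP control, which also lacks an eIF4E bait, thus held about the share that the IFE-1 pull-down did. Shares use TPM as deposited and weigh abundant genes most. By the median scaled TPM of the 38 genes, total RNA (5.51) stood nearer the GFP control (6.44) than the mKate control (1.98). The mKate control replicates 1 and 2 held 0.0238% and 0.0217%. The 20 lower genes held 0.00374 ± 0.000343% in the IFE-1 pull-down and 0.0166 ± 0.00178% in the mKate control, against 0.00470 ± 0.000597%, 0.00924 ± 0.00193% and 0.00316 ± 0.000278% in the IFE-3 pull-down, the GFP control and total RNA (SD, n = 3 each). For these 20 genes the mKate control replicates 1 and 2 held 0.0186% and 0.0159%.

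**Figure D4:**
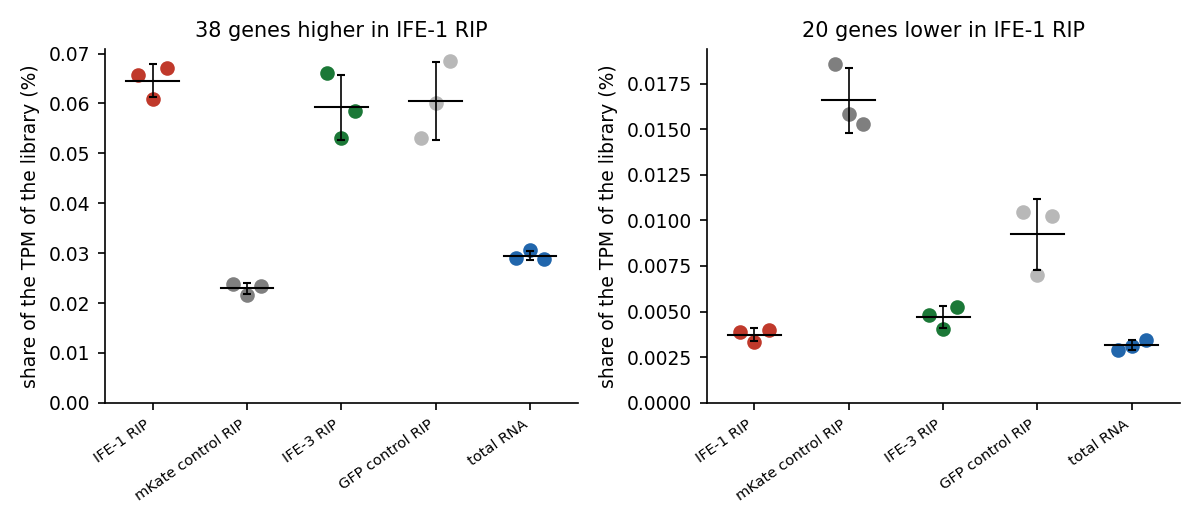
Share of the TPM of each library (y, percent) held by the 38 higher and the 20 lower genes in the 5 groups (x), with the mean as a line and the SD as an error bar (n = 3). For the 38 genes, the GFP control stands near the IFE-1 pull-down, and the mKate control and total RNA stand lower.

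In the larger sets called with the block, the mKate control and total RNA again held the lowest mean shares of the higher genes. The order of the other 3 groups was not that of the 38 genes. The 1046 genes held 10.0 ± 2.19% of the TPM in the IFE-1 pull-down and 5.77 ± 1.45% in the mKate control. They held 13.6 ± 0.534% in the IFE-3 pull-down, 10.6 ± 4.65% in the GFP control and 8.04 ± 0.0528% in total RNA (n = 3 each, SD). By library the GFP control held 7.10%, 8.75% and 15.9% of the TPM in these 1046 genes. Its replicate 1 lay below every total RNA library (7.99% to 8.09%) and below mKate control replicate 3 (7.32%). The mKate control mean was below that of total RNA for 889 of the 1046 and below that of the GFP control for 882, while the IFE-1 pull-down was above total RNA for 786. Without control replicate 3 the first 2 counts were 938 and 912, and control replicates 1 and 2 held 4.45% and 5.53% of the TPM in these genes. Of the 508 lower genes, the mKate control was below total RNA for 14 and the IFE-1 pull-down was above it for 183, and leaving out control replicate 3 did not move the count of 14. Control replicates 1 and 2 held 0.920% and 0.754% of the TPM in the 508 genes, against 0.354 ± 0.0378% in the IFE-1 pull-down (SD, n = 3). Both sets were chosen by the IFE-1 pull-down and mKate control libraries, so the values of these groups are a description. The same counts over all genes were not taken.

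The IFE-3 pull-down and the GFP control libraries allowed the same ratio to be measured in a second paralog with no library in common, though both RIPs came from KX155. Among 37 of the 38 higher genes tested there, 22 also lay above the GFP control, with a median log2 fold change of 0.35, where 53.8% of all 11473 genes tested in both lay above it with a median of 0.03. Limma called 0 of these 37, and 11 genes in all (0.0898% of 12249). Before adjustment, 14 of the 37 were higher and 8 lower than the GFP control at p under 0.05. Of all 12249 genes, 1116 were higher and 418 lower at that limit. Among 15 of the 20 lower genes, 11 lay below the GFP control, with a median of -0.66. Before adjustment, 4 of these 15 were lower and 1 higher at p under 0.05. Across the 11473 genes the fold changes of the paralogs correlated with a Pearson r of 0.185 and a Spearman rho of 0.0271 (0.166 and 0.00950 without mKate control replicate 3), and genes are not independent replicates.

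To find where the ratio to the tag control differed between the paralogs, the difference between the ratios was tested over 12 libraries and 14114 genes. Paralog, tag, type of beads and control strain cannot be told apart in this test. Limma called 45 genes (0.319%), 32 with a higher ratio for IFE-1 and 13 with a lower one. The balance of directions depended on the fit. Before adjustment 969 genes had a higher and 1406 a lower ratio at p under 0.05 (2375 in all). Blocking on the replicate number gave 923 genes (6.54%), 321 higher and 602 lower. With all 15 libraries in a fit 143 were higher and 177 lower, and without the GFP control replicate 2 the counts were 122 and 167. Of the 38 genes higher in the IFE-1 pull-down than in its control, 12 were among the 32, and 1 of the 20 lower genes was among the 13. The 4 IDs above were not among the 45, with limma adjusted p from 0.211 to 0.407, but the replicate block called WBGene00001392 (limma adjusted p = 0.0390). The count was 0 without IFE-1 pull-down replicate 2 or 3, the mKate control replicate 2 or IFE-3 pull-down replicate 1, 2 without IFE-3 pull-down replicate 2, 126 and 289 without the GFP control replicates 1 and 2, and 21 to 36 without each of the other 5 libraries (1712 to 1910 genes at an unadjusted p under 0.05 where it was 0).

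The groups behind these differences were examined one by one. For the 32 genes, the median level was 5.35 scaled TPM in the IFE-1 pull-down and 3.95 in the IFE-3 pull-down, but 1.75 in the mKate control and 9.43 in the GFP control, with 4.29 in total RNA. The mKate control lay below the GFP control without overlap in all 32, as it did in 8.16% of all 14114 genes, and the IFE-1 pull-down lay above the IFE-3 pull-down without overlap in 9, against 6.86% of all genes. In the 13 genes with a lower ratio, the medians were 2.52 in the IFE-1 pull-down, 5.26 in the IFE-3 pull-down, 5.48 in the mKate control, 2.28 in the GFP control and 2.87 in total RNA. The mKate control lay above the GFP control in 12 of them (8.25% of all genes) and the IFE-1 pull-down below the IFE-3 pull-down in 11 (12.1% of all genes). The test chose these genes by the same values, so the counts describe them and test nothing further.

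**Figure D5:**
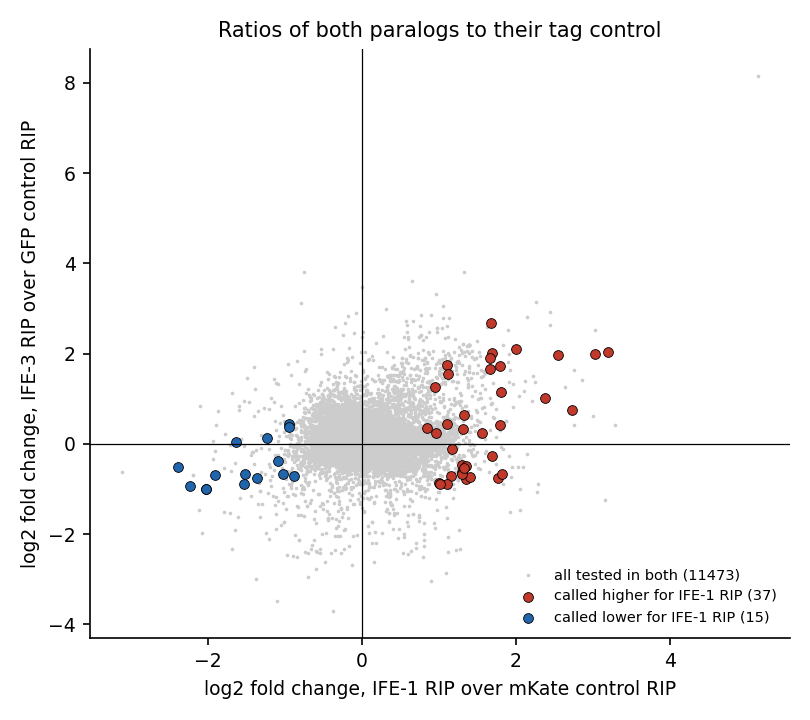
Log2 fold change of the IFE-1 pull-down over the mKate control (x) against that of the IFE-3 pull-down over the GFP control (y) for 11473 genes tested in both. Of the marked genes, 37 were called higher and 15 lower for the IFE-1 pull-down, and 22 of the 37 lie above 0 on the y axis.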

How the data were processed

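The authors deposited TPM values per gene for all 15 libraries. Build WBcel235, R 4.4.1, kallisto 0.48.0 and DESeq2 1.34.0 appear in the submitters' processing notes without a role, and no source used here gives the annotation or read filters. TPM keeps no depth, so the depth is unknown and no counting interval was given. Per the labels' protocols, rRNA was depleted and libraries did not keep strand, so overlapping antisense genes cannot be separated. Replicates are labelled biological.

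Libraries were divided by the median ratio to the geometric mean over genes above 0 in all libraries of a fit. Levels of the 5 groups set side by side used factors over 15 libraries, except for the 4 named IDs. For these, IFE-1 pull-down and mKate control values used factors over 6 libraries, and the other groups used factors over 15. Genes with 1 TPM or more in at least 3 libraries were tested after adding 1 and taking log2, in R 4.3.3 with limma 3.58.1 (mean-variance trend, two-sided, Benjamini-Hochberg over all genes tested, threshold 0.05). Fold changes on this scale understate low genes. The fit was checked on simulated data. Same-numbered libraries correlated by 0.168, 0.152 and 0.353 in their deviations, and others by at most 0.133, which met the level set for pairing, although no label states it. The fit without pairing was kept as the main one, and values with the replicate number as a block are given beside it.

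The gene table used here holds 46926 genes and matched 0 of the IDs, so the gene lists, cell type markers, sequences and a rescaling over protein-coding genes could not be used. Of the naming rule, 2 IDs per direction were kept, with the largest fold change among genes called without pairing, without overlap and whose higher group averaged 10 scaled TPM or more. The genes, classes and lists were chosen with earlier results of these data known.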

Additional observations from a re-analysis of the deposited data

Results flagged for a closer look

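The ratio to the tag control differed between IFE-1 and IFE-3 for 45 genes by limma's test of the difference. Of these, 32 were higher and 13 lower for IFE-1, but the replicate block gave 321 higher and 602 lower. Paralog, tag and control strain cannot be told apart in this test. The median levels of the 45 genes in all 5 groups are given above.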

How the results depend on the processing

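Without pairing, limma called 38 genes higher and 20 lower in the IFE-1 pull-down than in the mKate control. With the replicate block the counts were 1046 and 508, and with the block and without replicate 1, 2 or 3 they were 0, 0 and 635 higher and 0, 0 and 101 lower. Leaving out 1 library without the block gave 0 to 937 higher and 0 to 549 lower. Quantile normalization gave 64 and 35, a pseudocount of 5 gave 25 and 11, a filter at 5 TPM 235 and 108, all 15 libraries in a fit 121 and 69, and no filter 0 and 0 (4083 genes at an unadjusted p under 0.05). TPM as deposited gave 18 higher genes and 23 lower. A pseudocount of 0.1 and a fit without the trend stayed within 1.5 times of both counts. The difference between the ratios of both paralogs to their tag controls was called for 45 genes. It was called for 923 with the replicate block, 79 with TPM as deposited and 24 without a filter. With all 15 libraries in a fit the count was 320, and with 1 library left out it was 0 to 289. The cause of these changes was not tested. Of 17 or 18 other fits, the calls of WBGene00012965, WBGene00001392, WBGene00004996 and WBGene00019016 were lost in 8, 9, 8 and 9, and their signs did not change. The rescaling over protein-coding genes was not run. Depth is unknown, and with 3 libraries a group the precision is limited by their spread.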

Other observations

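The highest fold change of all 12238 genes was not called. WBGene00045160, chosen after its values were seen, had 320.5, 177.5 and 61.1 scaled TPM with IFE-1 as bait (replicates 1, 2 and 3), while the mKate control had 85.4, 0 and 0. Both groups spread widely, and the IFE-1 pull-down replicate 3 lay below control replicate 1. Its log2 fold change was 5.15 ± 1.77 SE (n = 3 each, limma adjusted p = 0.133, and 0.0514 with the replicate block). The IFE-3 pull-down held 250.4, 313.8 and 212.3, and all GFP control libraries were listed at 0. The IFE-3 comparison called this gene (limma adjusted p = 1.42e-05), while the test of the difference between the paralogs did not (limma adjusted p = 0.467). Total RNA held 0, 12.4 and 18.3, below every IFE-1 pull-down and IFE-3 pull-down library.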
